A study of Mus musculus with 9 samples.

Results

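Fam129c, Sdc4, Lef1, Vangl2 and Snx33 were 5 of the 55536 genes counted in RNA from mouse spleen B cells labelled pre-GC. The name places them before the germinal centre, the site in which B cells proliferate and hypermutate their antibodies. The 5 genes were selected for their large measured rises in p52Ki libraries over WT libraries, so the genotype difference of each is given here as a description and was not tested. 5 libraries carry the genotype label p52Ki, with titles written p52ki/ki for a knock-in on both alleles, and 4 carry the label WT. The protein p52, made from Nfkb2, is a DNA-binding subunit of NF-kB, and ETS1, a second DNA-binding protein, stands beside it in the title of the series. The sources used here do not give the construction of the knock-in, the strain and age of the mice, any immunisation or the gates of any cell sort. No label ties the libraries to separate mice, and the p-values below then describe only the spread of these samples, part of which may be technical.

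The 5 genes have different roles. Fam129c, which RefSeq names Niban3 with the synonym Bcnp1, encodes a protein of the niban family that is known for its expression in B cells. Sdc4 encodes syndecan 4, a transmembrane core protein that carries heparan sulfate chains, binds growth factors and matrix through them, and helps to assemble focal adhesions. Lef1 encodes a transcription factor of the TCF/LEF family that acts with beta-catenin when Wnt ligands signal, and in mice it is known from early B cell precursors and from T cells. Vangl2 encodes a multi-pass membrane protein of the planar cell polarity pathway, a branch of Wnt signalling that orients cells without beta-catenin. Snx33 encodes a sorting nexin of the SNX9 family, whose proteins bind and curve membranes during endocytosis.

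The bases before the start of 4 of the genes are shown because p52 and ETS1 are DNA-binding proteins and because the levels of these genes, in pairs, followed each other across libraries. The sequences are the 250 bases before the RefSeq start on GRCm38.p6, written in the direction of transcription, with capitals marking matches to the searched motifs. Sdc4 lies at chr2:164443189-164443438 on the minus strand, Fam129c at chr8:71597458-71597707 on the plus strand, Vangl2 at chr1:172027296-172027545 on the minus strand and Snx33 at chr9:56928372-56928621 on the minus strand.
Sdc4: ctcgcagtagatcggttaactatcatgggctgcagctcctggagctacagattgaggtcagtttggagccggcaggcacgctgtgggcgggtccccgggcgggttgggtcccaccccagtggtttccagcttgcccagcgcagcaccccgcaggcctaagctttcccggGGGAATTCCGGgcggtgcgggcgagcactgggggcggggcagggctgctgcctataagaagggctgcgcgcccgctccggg
Fam129c: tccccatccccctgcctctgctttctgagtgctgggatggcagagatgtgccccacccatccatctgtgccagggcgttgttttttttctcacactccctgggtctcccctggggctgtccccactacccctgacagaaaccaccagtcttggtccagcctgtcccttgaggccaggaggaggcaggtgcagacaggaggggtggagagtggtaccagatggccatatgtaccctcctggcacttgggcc
Vangl2: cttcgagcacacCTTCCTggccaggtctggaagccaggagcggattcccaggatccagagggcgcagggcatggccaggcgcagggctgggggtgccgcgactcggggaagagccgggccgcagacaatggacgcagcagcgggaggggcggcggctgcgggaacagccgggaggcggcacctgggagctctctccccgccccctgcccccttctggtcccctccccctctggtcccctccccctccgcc
Snx33: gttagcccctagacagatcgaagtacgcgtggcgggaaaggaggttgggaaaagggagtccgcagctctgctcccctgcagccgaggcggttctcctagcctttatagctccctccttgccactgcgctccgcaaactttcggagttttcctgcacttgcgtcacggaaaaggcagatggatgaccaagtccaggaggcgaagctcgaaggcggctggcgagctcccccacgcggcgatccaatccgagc

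Promoter windows were found for 5 of the 5 genes in the RefSeq table. The search covered the 250 bases shown and the 50 bases after the start, on both strands, for the NF-kB motifs GGGACTTTC and GGGNNTTCC, the ETS motifs CCGGAA and AGGAAG, and the TCF/LEF motifs CTTTGA and CTTTGT. Sdc4 held GGGAATTCC, a match to GGGNNTTCC, beginning 81 bases before the start. A match to CCGGAA on the other strand, read as TTCCGG on the strand shown, began 76 bases before the start, so that both matches share the letters TTCC. GGGNNTTCC was found in 5.82% of 32851 promoter windows of this length and CCGGAA in 14.9%. The arrangement in which they share those letters, searched for after the Sdc4 match had been seen, was in 205 windows, or 0.624%. Vangl2 held AGGAAG on the other strand, read as CTTCCT in the sequence, 238 bases before the start, a motif in 35.4% of windows. The windows of Fam129c and Snx33 and the Lef1 window nearest its annotated start held none of the 6 motifs. GGGACTTTC was in 0.353%, CTTTGA in 16.0% and CTTTGT in 18.7% of all windows, and in none of these 5. The Fam129c window held 1 CG dinucleotide, against 18 in Vangl2, 14 in Lef1, 19 in Sdc4, 20 in Snx33 and a median of 6 over all windows. The RefSeq start of Sdc4 lay 699 bases and that of Vangl2 1149 bases from the outermost start annotated in GENCODE M21, and windows at other annotated starts were not searched. A match is a description of the letters and shows no binding.

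The gene counts of a library summed to between 4492160 and 6647650 in p52Ki and to between 7368604 and 7937579 in WT. More genes had at least 1 count in each p52Ki library, from 15504 to 16634, than in any WT library, from 14033 to 14793. B cell markers were high in all libraries, with 8 markers summing to between 12105 and 15758 CPM in p52Ki and between 10803 and 11881 CPM in WT. Of those 8, Cd79a, part of the B cell receptor, rose in p52Ki (2829 ± 419 against 1569 ± 315 CPM, edgeR adjusted p = 0.00906). CPM, the usual counts scaled to a common library size, are based here on sizes corrected with the TMM factors of edgeR. Of 12849 genes tested between the genotypes, 8.53% passed an adjusted p of 0.05 in either direction, 4.49% as higher and 4.04% as lower in p52Ki. At an unadjusted p of 0.05, 10.8% were higher and 10.6% lower, and the counts of the gene lists below are to be read against these shares. In 7.3% of the tested genes, every p52Ki library lay above every WT library, and the 5 genes, having been selected on the same difference, all did so. All 5 passed the filter on low counts, Lef1, Vangl2 and Snx33 through their p52Ki libraries alone.

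Fam129c and Sdc4 were abundant in p52Ki and present at lower levels in WT. Fam129c (ENSMUSG00000043243, chr8:71597648-71607936, plus strand of GRCm38) stood at 664, 590, 594, 321 and 683 CPM in p52Ki libraries 1 to 5, against 43.1, 75.7, 34.4 and 59.3 CPM in WT libraries 1 to 4. Library p52Ki 4 was the lowest of its genotype and still more than any WT library, so the genotypes did not overlap. The means were 571 ± 145 CPM in p52Ki and 53.1 ± 18.2 CPM in WT (SD, n = 5 and 4), a 10.7-fold difference. The raw counts behind them, 2097 to 4573 per p52Ki library and 242 to 547 per WT library, leave little counting error in either genotype. Fam129c shares 776 exon bases with Pgls on the same strand, and reads in that stretch can belong to either gene. Pgls, an enzyme of the pentose phosphate pathway, was at 108 ± 19.4 CPM in p52Ki and 73.1 ± 13.5 CPM in WT (edgeR adjusted p = 0.107). How many reads this affects was not measured.

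Sdc4 (ENSMUSG00000017009, chr2:164424247-164443887, minus strand) had 638, 451, 583, 253 and 462 CPM in p52Ki libraries 1 to 5, against 36.1, 91.0, 63.7 and 76.5 CPM in WT libraries 1 to 4. As for Fam129c, library p52Ki 4 was the lowest of the knock-in libraries and no library of one genotype reached the other. The means of 477 ± 148 CPM in p52Ki and 66.8 ± 23.3 CPM in WT (SD, n = 5 and 4) differed 7.14-fold. Both genes also had a similar relative spread in each genotype. The coefficient of variation of Fam129c was 25.5% in p52Ki and 34.3% in WT, and that of Sdc4 was 31.1% in p52Ki and 34.9% in WT. Among 10623 tested genes with a count in all 9 libraries, Fam129c was in place 13 and Sdc4 in place 50 by fold of the means.

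**Figure D1:**
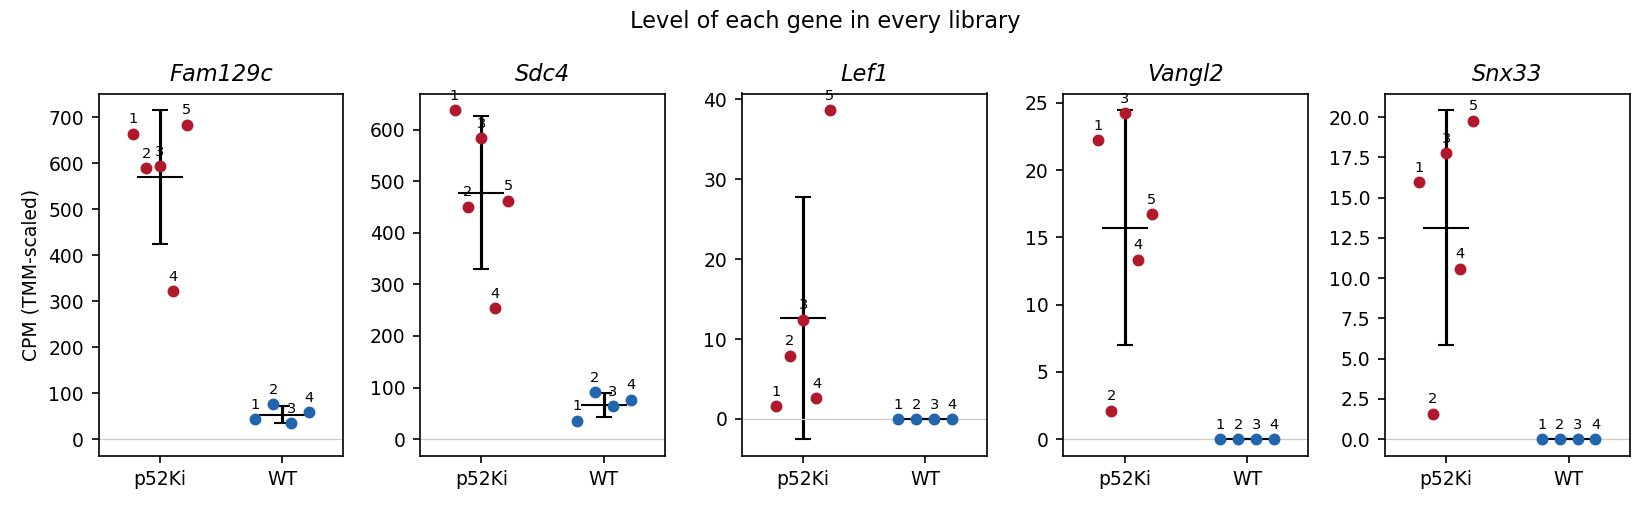
Level of each gene in CPM (linear axes, each with its own range) in every library, with p52Ki in red on the left and WT in blue on the right; points are libraries numbered by replicate, long bars are means and error bars are SD. Fam129c and Sdc4 are lowest in library p52Ki 4 within their genotype, Vangl2 and Snx33 in library p52Ki 2, and Lef1 reaches 38.7 CPM in library p52Ki 5 alone; Lef1, Vangl2 and Snx33 are at 0 in WT.

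Lef1, Vangl2 and Snx33 differed from that pair in having 0 counts in every WT library. Over the 4 WT libraries together, a count of 0 allows a level of up to 0.102 CPM, taken as 3 counts, a limit that covers counting error only because reads amplified by PCR are not independent molecules. Lef1 (ENSMUSG00000027985, chr3:131110471-131224356, plus strand) had 1.60, 7.94, 12.4, 2.60 and 38.7 CPM in p52Ki libraries 1 to 5, which were 11, 45, 77, 17 and 178 counts. Library p52Ki 5 held more than all the others together, so that 1 library sets much of the mean, and the level in the highest library was 24.2 times that in the lowest. The p52Ki mean of 12.6 ± 15.2 CPM (SD, n = 5) was at least 124-fold higher than the WT floor, and its SD exceeded the mean. The bound was 6.95 in log2 with all libraries and 5.94 without library p52Ki 5. The antisense gene Gm43352 shares 1208 exon bases with Lef1 on the opposite strand, and without strand information its reads cannot be told from those of Lef1. Gm43352 had 2, 29, 5, 2 and 30 counts in p52Ki libraries 1 to 5 and 0 in each WT library.

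Vangl2 (ENSMUSG00000026556, chr1:172000960-172028444, minus strand) had 22.2, 2.12, 24.2, 13.3 and 16.7 CPM in p52Ki libraries 1 to 5, from 153, 12, 150, 87 and 77 counts. Snx33 (ENSMUSG00000032733, chr9:56917193-56928371, minus strand) had 16.0, 1.59, 17.8, 10.6 and 19.8 CPM in the same libraries, from 110, 9, 110, 69 and 91 counts. Library p52Ki 2 was by far the lowest for both, while it was neither the lowest nor the highest for Fam129c, Sdc4 or Lef1. The Vangl2 mean of 15.7 ± 8.75 CPM in p52Ki was at least 154-fold higher than the WT floor, and the Snx33 mean of 13.1 ± 7.30 CPM (SD, n = 5) was at least 129-fold higher. Snx33 has 1 annotated transcript and Vangl2 has 6, and no other gene overlaps either of them on the annotation.

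Genes with counts in 1 genotype only were mostly counted in p52Ki. In the whole table, 91 genes had 0 counts in every WT library and a count in every p52Ki library, and 4 genes had the reverse. By mean level in p52Ki, Vangl2 was in place 2, Snx33 in place 3 and Lef1 in place 4 of those 91 genes, whose median was 2.69 CPM. The lowest p52Ki library differed among the 91 genes. It was library 4 for 34 of them, library 1 for 16, library 3 for 15, library 2, as for Vangl2 and Snx33, for 14, and library 5 for 12. The p52Ki libraries held fewer counts and more detected genes than the WT libraries, as given above, and the part of that difference in these levels was not tested. In such bulk samples, more cells that express a gene and more RNA of it per cell cannot be told apart.

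Levels of different genes were compared per kilobase of exon. By the union of annotated exons, the p52Ki means were 187 ± 58.3 CPM per kb for Sdc4, 160 ± 40.8 for Fam129c, 2.87 ± 1.60 for Snx33, 2.25 ± 1.25 for Vangl2 and 1.44 ± 1.73 for Lef1 (SD, n = 5). Sdc4 and Fam129c, the first pair in this order, lay within their spread of each other, and so did the 3 genes below them. The order within each of these sets turned with the length used. Per kb of the longest transcript, Fam129c at 201 ± 51.3 CPM stood above Sdc4 at 194 ± 60.4, and Lef1 at 3.46 ± 4.15 above Snx33 and Vangl2. In WT, by the union of exons, Sdc4 stood at 26.2 ± 9.16 and Fam129c at 14.9 ± 5.12 CPM per kb (SD, n = 4).

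Vangl2 and Snx33 were low and high together across the p52Ki libraries. The ratio of Vangl2 to Snx33 counts was 1.39, 1.33, 1.36 and 1.26 in p52Ki libraries 1 to 4 and 0.846 in library 5. The levels themselves differed 11.4-fold for Vangl2 and 12.5-fold for Snx33 between the highest and the lowest library. The 95% exact binomial interval of library 5, 0.616 to 1.16, excluded the ratios of the other 4 libraries but overlapped their intervals, such as 1.08 to 1.79 in library 1. These intervals cover counting error only and may be too narrow, because reads amplified by PCR are not independent molecules. Lef1 did not keep to Vangl2 in this way. The ratio of Lef1 to Vangl2 counts was 0.0719, 3.75, 0.513, 0.195 and 2.31 in p52Ki libraries 1 to 5. The ratio of Fam129c to Sdc4 counts was 1.04, 1.31, 1.02, 1.27 and 1.48 in p52Ki, against 1.19, 0.831, 0.540 and 0.776 in WT. It exceeded 1 in all p52Ki libraries and in library WT 1. No correlation across the 9 libraries is given, since they form 2 separate groups of fewer than 6.

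**Figure D2:**
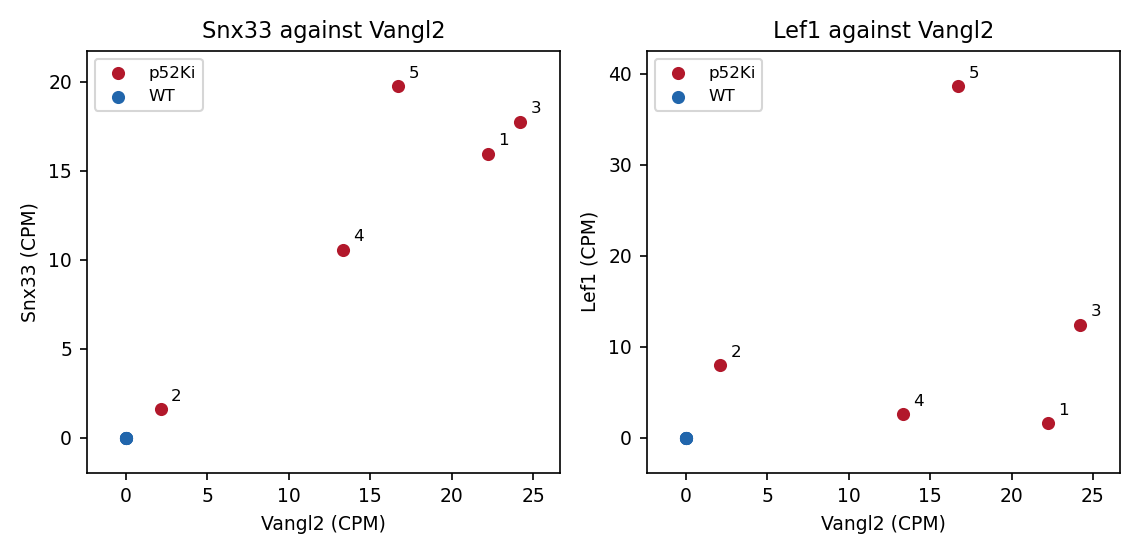
Snx33 (left) and Lef1 (right) against Vangl2 in each library, in CPM on linear axes, with p52Ki in red and numbered and the 4 WT libraries in blue, all at 0. Snx33 and Vangl2 are low together in library p52Ki 2 and higher together elsewhere, whereas Lef1 is 38.7 CPM in library 5 and 1.60 CPM in library 1, where Vangl2 is at 22.2 CPM.

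The likeness of 2 genes was measured as the root mean square distance between their log2 CPM profiles over the 9 libraries, after subtracting each gene's mean. This distance was 0.24 between Vangl2 and Snx33, against a median of 2.87 from Vangl2 to 9266 tested genes of at least 1 in mean log2 CPM. That median follows largely from the genotype difference the genes were chosen for. The distance was 0.43 between Fam129c and Sdc4, 1.42 between Lef1 and Snx33 and 1.55 between Lef1 and Vangl2. When the mean of each genotype was subtracted instead, Vangl2 and Snx33 were again each other's nearest gene, at 0.19, and Fam129c and Sdc4 were 0.31 apart. The medians to all genes were then smaller, at 1.03 for Vangl2, 0.61 for Fam129c and 0.66 for Sdc4. Vangl2 and Snx33 have 0 counts in every WT library, so the WT libraries add nothing to their distance of 0.19. Setting it against a median over genes that can vary in WT is therefore not a like comparison. Since the genes were chosen for 1 contrast, a small distance over all 9 libraries follows in part from that choice, and the distances are descriptions.

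The genes nearest to Sdc4 were Ccr7, the chemokine receptor for homing to T cell zones, at 0.21, and Bhlhe41, a transcriptional repressor, and Ly6d, a B lineage surface protein, both at 0.28. Ccr7 had 531 ± 102 CPM in p52Ki and 70.0 ± 18.7 CPM in WT, and Ly6d had 1685 ± 603 CPM in p52Ki and 244 ± 98.7 CPM in WT. Bhlhe41 at 0.33, Edaradd, an adaptor of the ectodysplasin receptor, at 0.36 and Ccr7 at 0.38 were nearest to Fam129c. The profiles of Fam129c and Sdc4 thus shared 2 of their 3 nearest genes. Edaradd had 143 ± 48.9 CPM in p52Ki and 12.9 ± 6.50 CPM in WT. Nearest to Vangl2 after Snx33 were Tlr12, a Toll-like receptor, at 0.63 and Il7r, the interleukin 7 receptor, at 0.71, and the same 2 genes followed Vangl2 for Snx33. Lef1 had no gene as near, with Lilra6, a leukocyte receptor, at 0.87, Ppm1e, a protein phosphatase, at 0.95 and Ern1, a sensor of stress in the endoplasmic reticulum, at 1.02. Tlr12 had 11.1 ± 3.75 CPM and Ppm1e 10.9 ± 7.14 CPM in p52Ki, and both had 0 counts in WT. Nearest genes depended on the centring. With each genotype centred, B3gnt8 was nearest to Fam129c at 0.17, Fgd2 to Sdc4 at 0.17 and Mfsd6 to Lef1 at 0.61.

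Among the tested paralogues of the 5 genes, Sdc1 was the one with every p52Ki library above every WT library. Fam129a was at 2.53 ± 3.33 CPM in p52Ki and 2.22 ± 4.45 CPM in WT (edgeR adjusted p = 0.974). Fam129b had too few counts to test, with 13 and 5 counts in p52Ki libraries 4 and 5 and 2 in library WT 4. Of the other syndecans, Sdc2 had 0 counts throughout. Sdc1, also a marker of plasma cells, had 37.9, 21.5, 26.5, 17.6 and 6.74 CPM in p52Ki libraries 1 to 5, against 0, 4.84, 0 and 0 CPM in WT libraries 1 to 4. The genotypes did not overlap, but the log2 difference of 4.17 ± 1.32 missed the threshold (edgeR adjusted p = 0.0762). Sdc1 met the filters on low counts through its p52Ki libraries, so it could be called higher but hardly lower. It passed at a filter of 10 CPM in 4 libraries (edgeR adjusted p = 0.0414) and with limma on the deposited values (0.00478). It also passed without library WT 2, whose 35 counts are all that WT holds (edgeR adjusted p = 0.00470). WT is then at 0, and the log2 difference of 10.2 depends on the prior count. With other single libraries left out, the edgeR adjusted p was up to 0.174. Sdc3 was at 3.93 ± 2.77 CPM in p52Ki and 0.899 ± 1.80 CPM in WT (edgeR adjusted p = 0.531).

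Among the relatives of Lef1, Tcf7 had 18 and 4 counts in p52Ki libraries 4 and 5 and 44 counts in library WT 2, too few to test. Tcf7l1 had 0 counts throughout. Tcf7l2 was at 5.48 ± 3.12 CPM in p52Ki and 1.46 ± 2.83 CPM in WT (edgeR adjusted p = 0.499), where library WT 4 alone held nearly all the WT counts. Like Sdc1, Tcf7l2 met the filter on low counts through its p52Ki libraries. Without library WT 4, which leaves 1 count in WT, the edgeR adjusted p was 0.0265. With other single libraries left out, it was up to 0.676. Vangl1, the relative of Vangl2, had 0 counts in all p52Ki libraries and 80 and 26 counts in libraries WT 2 and 4. Snx9, the founding member of the SNX9 family, was lower in every p52Ki library than in any WT library, at 37.9 ± 11.2 against 64.4 ± 17.4 CPM, and did not pass (log2 fold change -0.76 ± 0.29, edgeR adjusted p = 0.144). Snx18 was at 18.6 ± 4.13 CPM in p52Ki and 15.3 ± 12.3 CPM in WT (edgeR adjusted p = 0.836).

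By edgeR, genes that relay Wnt signals to LEF1 showed no called change beside Lef1. Of 41 such genes, from the frizzled receptors to the beta-catenin destruction complex and the TLE corepressors, 24 were tested, and edgeR called 0 in either direction. At an unadjusted p of 0.05, 3 were higher and 1 lower, and DESeq2 and limma each called 2 higher and 0 lower. Of all tested genes, 8.53% were called and 10.8% and 10.6% were higher and lower at that unadjusted p, so counts this small in 24 genes do not set the list apart. Its median log2 fold change was 0.18, against 0.03 over all tested genes. Of 25 TCF/LEF target genes, 13 were tested, 2 rose and 1 fell, which is 23.1% beside 8.53% of all tested genes, with a median of -0.22. Axin2, a widely used target of beta-catenin with TCF/LEF, had 0 counts in all 9 libraries.

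Ccnd2, a cyclin that drives entry into the cell cycle, had 282, 333, 248, 210 and 234 CPM in p52Ki libraries 1 to 5, against 31.9, 55.6, 50.2 and 50.6 CPM in WT libraries 1 to 4. The highest WT library was far below the lowest p52Ki library, and Ccnd2 rose by a log2 fold change of 2.47 ± 0.21 (edgeR adjusted p = 0.000313). The spread of Ccnd2 among the p52Ki libraries was small beside the 24.2-fold range of Lef1, which had far fewer counts. Whether the levels of Ccnd2 and Lef1 are related was not tested. Jun, a subunit of the AP-1 transcription factor, rose to 522 ± 87.4 CPM in p52Ki, against 263 ± 56.8 CPM in WT (0.99 ± 0.17, edgeR adjusted p = 0.00680). Birc5, which encodes the mitotic protein survivin, fell to 113 ± 30.7 CPM in p52Ki, against 218 ± 59.9 CPM in WT (-0.95 ± 0.24, edgeR adjusted p = 0.0284). That call ended in 5 of the fits that left out 1 library, those without library WT 3 or 4 or library p52Ki 1, 3 or 5 (adjusted p up to 0.0855).

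By edgeR, no core gene or regulator of planar cell polarity was called beside Vangl2. Of these, 15 of 29 were tested and edgeR called 0, with 1 higher and 1 lower at an unadjusted p of 0.05, 1 higher and 1 lower by DESeq2 and 0 by limma. With 8.53% of all tested genes called, 0 of 15 is near the background, and the same holds for the 2 heparan sulfate lists that follow. The median log2 fold change was 0.09. Heparan sulfate chain synthesis, which supplies the chains that syndecan 4 carries, had 19 of 30 genes tested and 0 called by edgeR, with 3 higher and 1 lower at an unadjusted p of 0.05. DESeq2 called 2 higher and 1 lower, limma called 1 higher and 0 lower, and the median was 0.30. Of 18 other heparan sulfate proteoglycans and syndecan partners, 8 were tested and 0 called by edgeR, DESeq2 or limma, with 1 lower at an unadjusted p of 0.05 and a median of -0.18.

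Among 31 tested genes of 34 for sorting nexins and endocytosis, the class of Snx33, 0 rose and 3 fell, with a median of -0.04. These calls are 9.68% of the list, near the 8.53% of all tested genes, and are given as single genes. At an unadjusted p of 0.05, 2 were higher and 6 lower, DESeq2 called 1 higher and 5 lower, and limma called 0 higher and 4 lower. Snx8, a sorting nexin of early endosomes, was at 165 ± 9.86 CPM in p52Ki, against 256 ± 18.5 CPM in WT (log2 fold change -0.63 ± 0.12, edgeR adjusted p = 0.0112). Cltc, the clathrin heavy chain, fell to 214 ± 55.3 CPM in p52Ki, against 399 ± 42.3 CPM in WT (-0.90 ± 0.18, edgeR adjusted p = 0.0135). Ap2m1, a subunit of the AP-2 adaptor that links clathrin to cargo, fell to 387 ± 49.9 CPM in p52Ki, against 611 ± 77.4 CPM in WT (-0.66 ± 0.14, edgeR adjusted p = 0.0141). Snx33 itself was counted only in p52Ki.

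**Figure D3:**
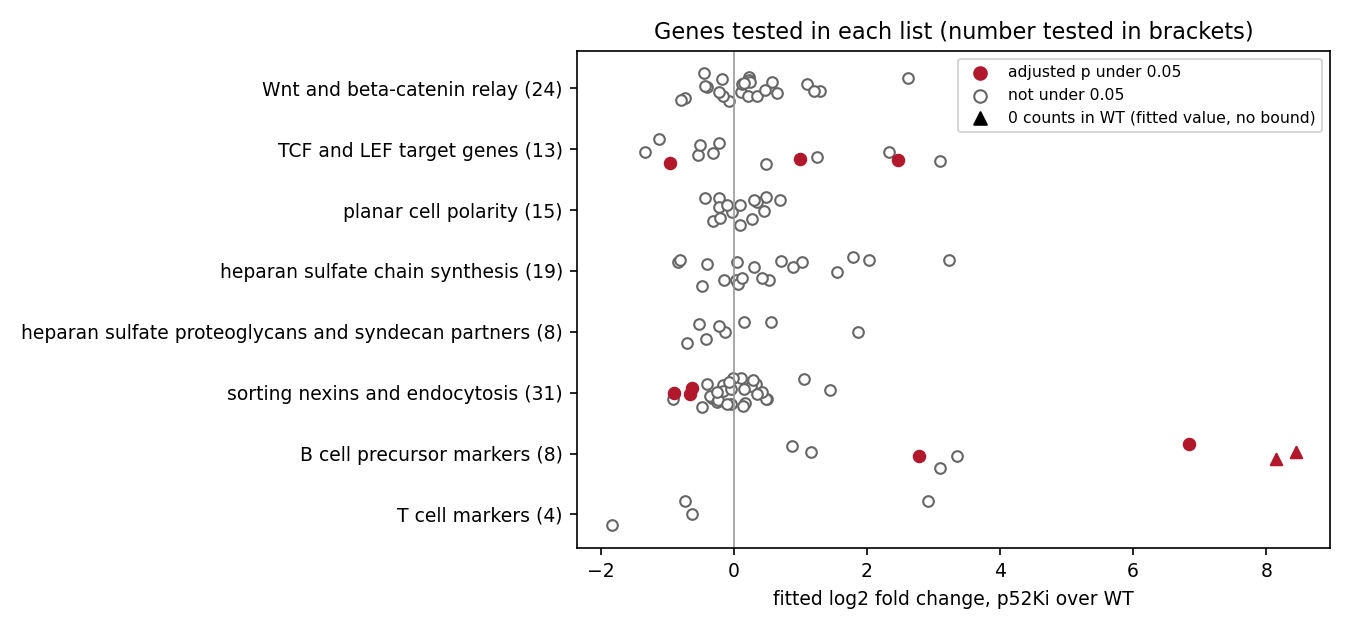
Fitted log2 fold change of p52Ki over WT for each tested gene of 8 lists, 1 row per list with points spread vertically at random; filled points passed an edgeR adjusted p of 0.05, and triangles are genes with 0 counts in WT, whose fitted value depends on the prior count. In the rows for Wnt relay, planar cell polarity and heparan sulfate genes no point is filled, the 3 filled points of the endocytosis row lie below 0, and the 4 filled points of the B cell precursor row lie above 0.

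Lef1 is expressed by early B cell precursors and by T cells, so markers of both were set beside it. Of 11 B cell precursor markers, 8 were tested, 4 rose and 0 fell, beside 4.49% of all tested genes that rose and 4.04% that fell. The median log2 fold change was 3.23, and it stays the same with the 2 genes at 0 in WT set at their bounds. At an unadjusted p of 0.05, 7 were higher and 0 lower, beside 10.8% and 10.6% of all tested genes, and DESeq2 called 7 and limma 6 higher and both 0 lower. Of the called genes, Il7r, Bst1 and Rag2 passed the filter on low counts through their p52Ki libraries alone. Rag1, Sox4 and Vpreb1, which were not called, met it through those libraries as well. Such genes can be called higher but hardly lower. The split between higher and lower, and the median, can therefore not be read against all tested genes. Cd93 and Vpreb3 alone had WT levels that pass the filter. Cd93, a receptor of immature B cells, had 68.4, 30.5, 35.5, 30.5 and 64.1 CPM in p52Ki libraries 1 to 5, against 7.35, 4.29, 9.38 and 5.57 CPM in WT libraries 1 to 4 (2.78 ± 0.40, edgeR adjusted p = 0.00299). Il7r, the receptor through which precursors respond to interleukin 7, averaged 9.93 ± 6.62 CPM in p52Ki and had 2 counts in library WT 4 only (edgeR adjusted p = 0.00780). The ratio of its p52Ki to its WT level was 140, with a 95% counting interval of 38.3 to 1160. Bst1, a surface enzyme of bone marrow precursors, averaged 5.38 ± 3.52 CPM in p52Ki and had 0 counts in WT, at least 52.7-fold higher (edgeR adjusted p = 0.0135).

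Rag2, part of the enzyme that cuts antigen receptor genes, had 60, 31, 66, 0 and 37 counts in p52Ki libraries 1 to 5 and 0 in WT (edgeR adjusted p = 0.0291). Its call ended without any 1 of the 4 WT libraries (adjusted p up to 0.0569). Only 2 precursor markers, Cd93 and Il7r, were called without library p52Ki 1, 2 or 5, where the filter left 6 of the markers to test. The defining marker Dntt, which adds bases at antibody gene joints, was at 0 in all 9 libraries, and Igll1, of the surrogate light chain, had 41 counts in library p52Ki 2 and 1 in library p52Ki 5. The summed level of the 11 markers was 359, 197, 244, 168 and 571 CPM in p52Ki libraries 1 to 5 and 64.7 to 131 CPM in WT. Vpreb3 made up most of this sum, at 222, 132, 162, 114 and 444 CPM in p52Ki libraries 1 to 5. In WT, Vpreb3 was at 56.2 to 120 CPM, so the genotypes overlapped, and it was not called (edgeR adjusted p = 0.0937). Library p52Ki 5 had both the highest sum and the most Lef1, and library p52Ki 1 had the next highest sum and the least Lef1. The part of cells of this kind in the Lef1 level was not tested.

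T cell markers were mostly at or near 0. Of 19 markers, 4 were tested, edgeR, DESeq2 and limma called 0, and at an unadjusted p of 0.05 0 were higher and 1 lower. Their sum, most of it Lck, ran from 87.5 to 233 CPM in p52Ki and from 220 to 275 CPM in WT. Cd3d and Cd3e, which T cells need for their receptor, had 0 counts in library p52Ki 5, where Lef1 was highest, and 27 and 2 counts in library p52Ki 4, where Lef1 was at 2.60 CPM. Markers of other cells that spleen can hold are given as counts and sums, with the genes that were called and some that were not. Of 6 tested plasma cell markers, edgeR called 0 higher and 2 lower, or 33.3%. At an unadjusted p of 0.05, 1 was higher and 2 lower, and DESeq2 and limma called 0 and 1 higher. Of 7 tested myeloid markers, edgeR called 0 higher and 1 lower, or 14.3%. At that unadjusted p, 2 were higher and 1 lower, and DESeq2 and limma called 2 and 1 higher. Of all tested genes, 8.53% were called, and 10.8% were higher and 10.6% lower at that unadjusted p. In lists this short, these shares rest on 1 or 2 genes. Of the plasma cell markers, Jchain fell to 562 ± 202 CPM in p52Ki, against 1252 ± 194 CPM in WT (edgeR adjusted p = 0.0116). Slamf7 fell to 118 ± 32.5 CPM in p52Ki, against 216 ± 34.8 CPM in WT (edgeR adjusted p = 0.0243). Sdc1, described above, was higher in p52Ki without overlap and was not called, and Xbp1, Mzb1 and Prdm1 overlapped between the genotypes. The myeloid marker Flt3 fell to 21.6 ± 9.59 CPM in p52Ki, against 58.5 ± 10.3 CPM in WT (edgeR adjusted p = 0.0266). Ly6c2 and Lyz2 were higher in every p52Ki library than in any WT library and were not called. Ly6c2 was at 26.4 ± 10.3 CPM in p52Ki and 3.53 ± 2.69 CPM in WT (edgeR adjusted p = 0.0577). Lyz2 was at 28.5 ± 21.5 CPM in p52Ki and 7.52 ± 4.17 CPM in WT (edgeR adjusted p = 0.0685). Cd14, Itgam, Itgax and Siglech had 49, 27, 74 and 63 counts in p52Ki and 0 in WT, too few to test. The other tested myeloid markers overlapped. The calls of Slamf7 and Flt3 ended in 4 and 5 of the fits without 1 library. The summed plasma cell markers ran from 824 to 1489 CPM in p52Ki and from 1771 to 2175 CPM in WT, and the myeloid markers from 98.5 to 218 CPM in p52Ki and from 102 to 164 CPM in WT. Their part in the levels of the 5 genes was not tested. Of 15 stromal and endothelial markers in the table, 2 were tested, both were higher at an unadjusted p of 0.05 and 1 was called by edgeR. With 2 tested, this cannot be read against the 8.53% of all tested genes called. Their sum ran from 139 to 271 CPM in p52Ki and from 41.0 to 126 CPM in WT. Mfge8 was at 21.5 ± 11.99 CPM in p52Ki and 3.99 ± 4.89 CPM in WT (edgeR adjusted p = 0.165). Cdh5, Epcam and Krt18 had 14, 42 and 11 counts over the p52Ki libraries, against 17, 166 and 58 over the WT libraries, and Vwf and Cxcl13 had 0 in p52Ki, against 73 and 24 in WT. Kdr had 11 and Pdgfrb 4 counts in p52Ki, against 0 in WT. Of the rest, Col1a1, Col1a2, Col3a1, Cxcl12, Pdgfra and Krt8 were at 0 in all 9 libraries, and Pecam1, which B cells also carry, rose to 183 ± 54.6 CPM in p52Ki, against 71.4 ± 33.2 CPM in WT (edgeR adjusted p = 0.0256), a call that ended in 5 of the fits without 1 library.

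**Figure D4:**
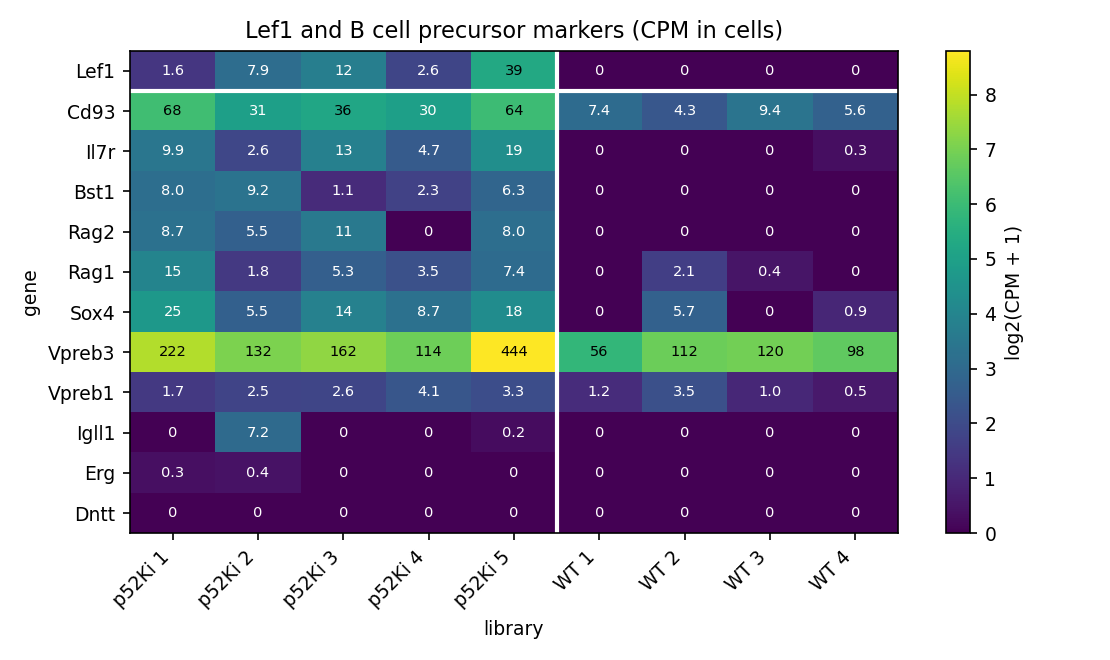
Lef1 (top row) and 11 B cell precursor markers in the 9 libraries, with p52Ki on the left; colour is log2(CPM + 1) and each cell prints the CPM. Cd93 is higher in all 5 p52Ki libraries than in WT and Dntt is at 0 throughout, while Lef1 varies from 1.60 to 38.7 CPM among the p52Ki libraries.

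The nearest protein-coding genes that do not overlap them were read on each side of the 5 genes, which leaves out Pgls, described above. Colgalt1, which adds galactose to collagen and begins 3062 bases after Fam129c, was at 173 ± 47.1 CPM in p52Ki, against 56.2 ± 20.5 CPM in WT, and rose (log2 fold change 1.62 ± 0.29, edgeR adjusted p = 0.00689). On the other side of Fam129c, Slc27a1, a fatty acid transporter, was at 19.2 ± 10.6 CPM in p52Ki and at 10.1 CPM in library WT 2 with 0 in the other WT libraries. It did not pass (edgeR adjusted p = 0.259), except without library WT 2 (0.00500), which leaves WT at 0, and with limma (0.0144). Slc27a1 met the filter on low counts through its p52Ki libraries, so it could be called higher but hardly lower. With other single libraries left out, the edgeR adjusted p was up to 0.412. Colgalt1, Slc27a1 and Fam129c lie on the same strand.

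Around Sdc4, Sys1 was at 82.4 ± 20.1 CPM in p52Ki and 51.6 ± 8.62 CPM in WT (edgeR adjusted p = 0.0898, DESeq2 0.0331), and Rbpjl was counted in library p52Ki 4 alone. Rpl34 and Hadh beside Lef1 had log2 fold changes of 0.04 ± 0.28 and 0.05 ± 0.32 (edgeR adjusted p = 0.965 and 0.963), and Rpl34 and Hadh turned below 0 under other settings. Slamf6, a receptor of lymphocytes beside Vangl2, was at 287 ± 41.5 CPM in p52Ki and 213 ± 26.6 CPM in WT (edgeR adjusted p = 0.113, DESeq2 0.0371), and Nhlh1 on the other side had 0 counts. Cspg4 beside Snx33 had 0 counts, and Imp3 on the other side was at 36.9 ± 15.0 CPM in p52Ki and 27.8 ± 7.22 CPM in WT (edgeR adjusted p = 0.553). By edgeR, no gene next to Sdc4, Lef1, Vangl2 or Snx33 passed.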

How the data were processed

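RNA of spleen pre-GC B cells was sequenced in 5 p52Ki and 4 WT libraries. Per the labels' protocols, RNA from the PicoPure kit was turned into full-length cDNA and amplified by SMART-Seq v2, which marks no strand and adds no molecular identifier, and paired-end libraries were made with Nextera XT. Per the submitters' processing notes, the build was GRCm38 and the tools were SAMtools 1.8, HISAT2 2.1.0 and Subread 1.6.2 with its featureCounts. The annotation release is not given. The authors deposited raw counts for 55536 genes, and log2 CPM values for 12849 genes that equalled edgeR's log CPM of those counts with a prior count of 2 (largest difference 4.97e-14).

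The members and gene lists were chosen with earlier results of these data known. Counts were tested in R 4.3.3 with edgeR 4.0.16 (filterByExpr, TMM, robust quasi-likelihood F test, no covariate), two-sided, with Benjamini-Hochberg adjustment over 12849 genes and a threshold of 0.05. The test was checked on simulated data. The 5 genes were not tested, and lists are given as counts without a set test. Genes named are the 5 members, their paralogues, up to 4 called genes of each list in order of p and the 3 genes of nearest profile to each member among genes whose mean log2 CPM reached 1, leaving out predicted genes, pseudogenes and receptor segments. Other genes, such as Axin2, Dntt, Igll1, the Cd3 genes and those next to the members on the chromosome, were named for their place or role. A fold against a genotype at 0 is a lower bound against 3 counts over its summed libraries. Errors are SD for levels and SE for log2 fold changes. Positions are from GENCODE M21, which held 55450 of the identifiers. Promoters are from RefSeq on GRCm38.p6. Alternatives were DESeq2 size factors, no filter, a filter of 10 CPM in 4 libraries, the replicate number as a block, leaving out 1 library at a time, DESeq2 1.42.0 and limma 3.58.1 on the deposited log2 values. Replicates with the same number did not deviate together (correlations of their deviations -0.04, -0.02, -0.01 and -0.01), so the numbers were taken to pair nothing.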

Additional observations from a re-analysis of the deposited data

Results flagged for a closer look

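Of 67 groups of 4 or 5 libraries looked at, 14 held a library that stood apart. Its gap to the nearest other library exceeded Dixon's 95% critical share of the range. For normally distributed values, chance gives this in about 1 group in 20. A group with counts in 1 library alone always meets this mark, as for Sdc1, Sdc3, Tcf7, Slc27a1, Fam129a, Fam129b, Il7r and Rbpjl below. The 14 groups can therefore not be read against that rate. Among the 5 genes, Fam129c alone met this mark, with 321 CPM in library p52Ki 4 beside 590 CPM in the next lowest. Lef1 fell just short of it, with library p52Ki 5 at a share of 0.708 against the critical 0.71. In WT, library 2 stood apart for Sdc1 (4.84 CPM), Sdc3 (3.60 CPM), Tcf7 (6.09 CPM) and Slc27a1 (10.1 CPM), with the other 3 libraries at 0. Library WT 4 stood apart for Fam129a (8.89 CPM), Fam129b (0.265 CPM) and Il7r (0.265 CPM), with the others at 0, and for Tcf7l2 (5.71 CPM beside 0.138 CPM). Library WT 3 was highest for Cltc (462 CPM beside 383 CPM) and Sys1 (64.6 CPM beside 47.4 CPM), and library WT 1 was lowest for Slamf6 (174 CPM beside 225 CPM). Rbpjl was counted in library p52Ki 4 alone (0.306 CPM), and Rpl34 was highest in library p52Ki 5 (156 CPM beside 83.4 CPM).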

How the results depend on the processing

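With each library left out in turn, Fam129c had log2 fold changes of 3.29 to 3.64 and Sdc4 of 2.63 to 3.02, and the log2 lower bounds ran from 5.94 to 7.24 for Lef1, 6.83 to 7.55 for Vangl2 and 6.57 to 7.30 for Snx33. In those fits 344 to 551 genes passed as higher and 262 to 557 as lower in p52Ki, and the list counts ran 0 to 1 for Wnt relay genes higher, 2 to 3 higher and 0 to 1 lower for TCF/LEF targets, 0 to 1 higher and 0 to 1 lower for heparan sulfate synthesis, 1 to 4 for B cell markers, 2 to 4 for precursor markers, 0 to 1 higher and 1 to 2 lower for plasma cell markers, and 0 to 1 higher and 0 to 1 lower for myeloid markers. Log2 fold changes near 0 turned, over ranges of -0.23 to 7.04 for Fam129a, -0.048 to 0.95 for Snx18, -0.23 to 0.19 for Rpl34 and -0.16 to 0.17 for Hadh.

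DESeq2 size factors gave 1 Wnt relay gene and 1 heparan sulfate synthesis gene higher. No filter gave 2 B cell markers and 1 myeloid marker higher. The 10 CPM filter gave 1 Wnt relay, 1 heparan sulfate synthesis, 2 B cell, 1 precursor, 1 plasma cell and 2 myeloid genes higher. The replicate block gave 97 genes higher and 32 lower in all, 1 TCF/LEF target higher and 0 lower, 0 B cell markers and 1 precursor marker higher, 0 sorting nexin and endocytosis genes, 1 plasma cell marker and 0 myeloid markers lower, with Rpl34 at -0.23 and Hadh at -0.032; Snx8, Cltc, Ap2m1 and Colgalt1 then had adjusted p of 0.0973, 0.0578, 0.119 and 0.0527. The replicate numbers pair nothing in the labels. DESeq2 gave 995 genes higher, with 2 Wnt relay genes higher, 1 planar polarity gene higher and 1 lower, 2 heparan sulfate synthesis genes higher and 1 lower, 1 endocytosis gene higher and 5 lower, and 4 B cell, 7 precursor and 2 myeloid markers higher. Limma gave 2 Wnt relay, 1 heparan sulfate synthesis, 2 B cell, 1 plasma cell and 1 myeloid gene higher, with Rpl34 at -0.012. The cause of these changes was not tested. The bounds of Lef1, Vangl2 and Snx33 come from counts alone and have no value under the block, DESeq2 or limma. In WT, a level under 0.102 CPM of any of the 3 was not detectable at this depth.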
